A study of Mus musculus with 63 samples.

Results

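Messenger RNA of wild-type (WT) mouse embryonic fibroblasts (mEFs) grown in culture was compared with that of whole WT embryos at mid-gestation (E13.5), the stage from which the fibroblasts had been taken. The comparison rested on 6 of the 63 samples of the series, chosen by their labels: the 3 WT mEF libraries that accompany the Chd2 mutant fibroblasts and the 3 WT libraries of E13.5 embryos. The study made mice that lack Chaserr, a long noncoding RNA gene next to Chd2, and mice with a mutant Chd2 allele, and profiled their embryos, brains and fibroblasts by RNA-seq and ATAC-seq. The labels place the mEFs in a Chd2+/m cross, where they carried no mutant allele, and the embryos were WT animals of the Chaserr line. The animals were described as C57black6 Ola HSD mice purchased from a supplier and strains bred in house. Per the study's methods, the edited lines began in CB6F1 Ola HSD mice and were backcrossed to C57BL/6 Ola HSD. No treatment was given, and neither group carried a reporter, a Cre or a deletion made by the study.

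To prepare mEFs, the head of each embryo was removed for genotyping and the liver was discarded. The rest of the body was dissociated with trypsin, plated on gelatin and grown in medium with fetal bovine serum, whereas the E13.5 libraries came from whole embryos. Genes of the head and the liver could therefore be lower in mEFs because the organ was left out of the dish, and this cannot be told apart from loss of the cells in culture. In both kinds of bulk sample, fewer cells of a type and less RNA per cell cannot be told apart either. The groups also differed in library kit, since SENSE (Lexogen) was used for the mEFs and TruSeq (Illumina) for the embryos, so kit and group were fully confounded. The sources used here do not name the animal behind each library, and the p-values measure the spread between these libraries, part of which may be technical.

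By E13.5 the mouse embryo has a circulation filled with red blood cells, a liver that makes both blood and plasma proteins, a brain and spinal cord producing neurons, a stratifying skin, a beating heart, and limbs in which cartilage has been laid down. A cell suspension of this body placed on plastic in serum is soon taken over by mesenchymal cells that attach and divide. Serum growth factors switch on immediate early genes, and spreading on a stiff surface assembles actin stress fibers, which releases the cofactors of SRF and the Hippo effector YAP to the nucleus, where YAP works with TEAD factors. Cultured embryonic fibroblasts are also known to build up p53 activity and cell cycle inhibitors when grown in atmospheric oxygen.

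Expected counts summed to between 24875751 and 26311335 per embryo library and between 15038261 and 16102716 per mEF library. Log2 CPM (counts scaled to the library total) correlated with r between 0.986 and 0.993 within a group, and the biological coefficient of variation was 0.0754 among mEFs and 0.1 among embryos. Xist, which is transcribed from the inactive X chromosome of females, stood at 245 TPM (a level corrected for gene length and depth) in embryo replicate 2 and at 278 and 218 TPM in mEF replicates 1 and 2. It was at most 0.14 TPM in the other libraries, where the Y-linked gene Ddx3y was read instead, so each group held both sexes and was not drawn from a single animal. Embryo replicate 2 also held the highest sums of blood and liver genes, which are given beside those results.

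Of 15561 genes with enough counts to be tested, 13440 differed between mEFs and embryos at an adjusted p under 0.05 (86.4%, edgeR quasi-likelihood test with Benjamini-Hochberg adjustment). A gene was called when its change was also at least 2-fold. By that rule 3394 genes were higher in mEFs (21.8%) and 4671 were lower (30.0%), and the higher genes made up 42.1% of the calls. These counts use TMM factors, which assume that most genes keep their level. With library totals alone, 1508 genes were called higher (9.69%) and 7640 lower (49.1%), and higher genes made up 16.5% of the calls. The median log2 fold change of all genes tested was -0.15 with TMM and -0.97 with library totals. The RNA of the mEF libraries was held by fewer genes. The 100 most abundant rows held 44.8 to 46.4% of TPM in mEFs and 32.8 to 33.8% in embryos, and the 1000 most abundant held 76.3 to 77.7% and 62.4 to 62.7%. A gene whose TPM was alike in both groups could for this reason be called higher with TMM. The kits differed in the same way in adult brain, in libraries of WT and Chaserr+/- mice. There the top 10 rows held 9.86 to 11.0% of TPM with SENSE and 4.25 to 4.98% with TruSeq, beside 13.3 to 14.3% in mEFs and 7.68 to 9.61% in embryos. Kit and culture cannot be told apart here. Directions that turned between the scalings are named below, and "higher" and "lower" otherwise mean the calls made with TMM.

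The genes were read through 34 lists of cell type markers, regulators and response genes, described by the count of members called and by the sum of their TPM in each library. Sums of 9 other WT mEF libraries, prepared with SENSE from 3 other pregnancies or crosses of the series, show how far cultures differed. By TPM, with 33 of the lists the 3 mEF libraries lay wholly above or wholly below the 3 embryos, and only the Hox genes overlapped. This says little about the lists, since 86.4% of all genes tested differed at an adjusted p under 0.05 (edgeR). The share of all genes without overlap was not counted. By CPM after TMM, 3 of the sums turned in direction.

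**Figure D1:**
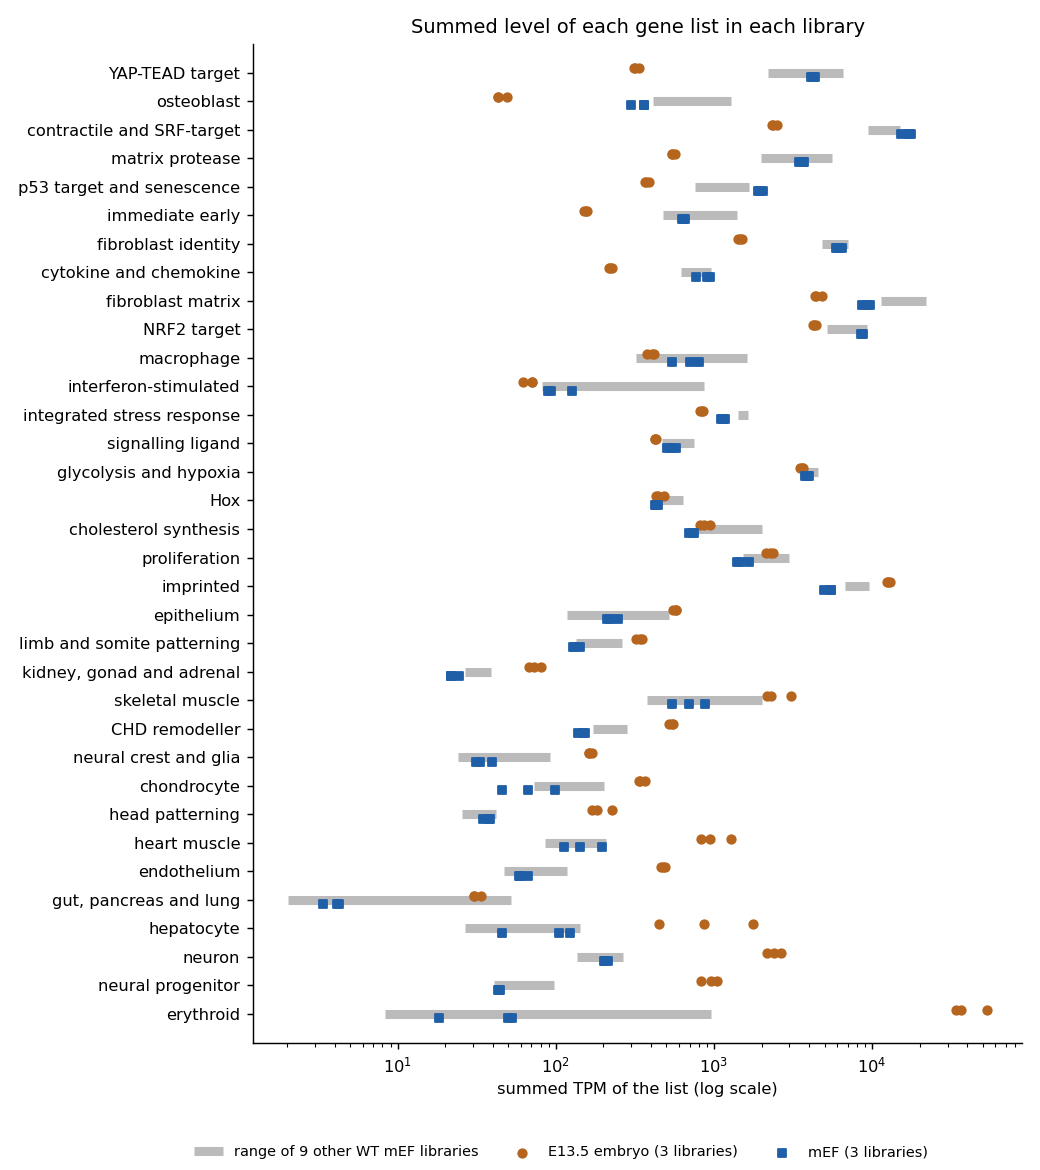
Summed TPM (horizontal, log scale) of each of 34 gene lists in the 3 E13.5 embryo libraries (circles), the 3 mEF libraries (squares) and, as a gray bar, the range of 9 other WT mEF libraries. YAP-TEAD, contractile, protease and p53 lists lay above the embryos, and erythroid, neural and hepatocyte lists below them, in each of the libraries drawn.

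The actin cytoskeleton and smooth muscle contractile genes were much higher in culture. Of 16 listed members, 14 were called higher and 1 lower, against 21.8% and 30.0% of all genes tested, with a median log2 fold change of 3.30. Acta2, the smooth muscle actin found in the stress fibers of activated fibroblasts, was at 237, 204 and 216 TPM in embryo replicates 1 to 3 and at 5713, 6735 and 6998 TPM in the mEFs. All mEFs were thus far above all embryos, and the log2 fold change was 5.97 ± 0.11 (SE, n = 3 per group, edgeR adjusted p = 9.22e-12). Tagln, which encodes the actin-binding protein transgelin, went from 73.0 to 81.8 TPM in embryos to 2650 to 3210 TPM in mEFs, a log2 fold change of 6.38 ± 0.12 and the largest rise of the list. Actg2, the enteric smooth muscle actin, rose from at most 28.4 TPM to at least 509 TPM. Tpm1, a tropomyosin that stabilizes actin filaments, was already abundant in embryos at 754 to 825 TPM and reached 1614 to 1684 TPM. Synpo2, an actin-bundling protein of muscle, was the exception, at 6.66 to 7.73 TPM in embryos and 1.45 to 1.80 TPM in mEFs. The 16 genes together took 0.24% of all TPM in embryos and 1.67% in mEFs, and their sum in the 9 other WT mEF libraries, 9370 to 14900 TPM, was also above every embryo.

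Targets of YAP and TEAD showed the same direction, with 11 of 12 called higher, none lower and a median log2 fold change of 3.74. Ccn1, Ccn2 and Thbs1 encode secreted matricellular proteins that cells release as they spread. Ccn1 was at 32.8, 32.9 and 35.3 TPM in the embryos and at 948, 1006 and 1026 TPM in the mEFs, a log2 fold change of 5.97 ± 0.08 (edgeR adjusted p = 2.26e-12). Ccn2 rose by 6.26 ± 0.11 on the log2 scale, from 20.7 to 24.2 TPM to 755 to 892 TPM. Thbs1 was at 50.6 to 54.8 TPM in embryos and 1490 to 1553 TPM in mEFs. Ankrd1, a nuclear ankyrin-repeat protein of stretched muscle and a standard YAP reporter gene, was at 11.8 to 21.2 TPM in embryos and 135 to 198 TPM in mEFs. Across the 9 other mEF libraries the sum of the list ran from 2210 to 6520 TPM, a 2.95-fold range, while it varied by 1.06-fold among the 3 mEFs compared here.

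The promoters of Ccn1 and Ankrd1 are shown because they hold the letters GGAATG, the core of the element that TEAD factors bind. Each stretch covers the 160 bases before the start of the gene, on the strand of the gene, from RefSeq on GRCm38.p6. It lies at chr3:145649986-145650145 on the minus strand for Ccn1 and at chr19:36119845-36120004 on the minus strand for Ankrd1. Capitals mark GGAATG or its reverse complement CATTCC, which begins 103 bases upstream of the start in Ccn1 and 123 bases upstream in Ankrd1.
Ccn1: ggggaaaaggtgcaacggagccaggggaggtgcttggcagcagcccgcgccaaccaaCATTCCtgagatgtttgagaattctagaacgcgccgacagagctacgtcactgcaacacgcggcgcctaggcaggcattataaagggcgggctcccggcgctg
Ankrd1: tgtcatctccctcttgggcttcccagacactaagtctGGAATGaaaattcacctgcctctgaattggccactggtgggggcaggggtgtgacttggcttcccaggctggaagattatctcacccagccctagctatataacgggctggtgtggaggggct
In the 300-base promoters of RefSeq (250 bases before to 50 after each start), searched on both strands, GGAATG was found in 8 of 9 members of the YAP-TEAD list that had a promoter sequence and in 16.6% of all 27025 promoters. A match is only a match of letters. Among contractile genes the CArG box, the element of SRF, was found in 3 of 13 promoters and in 1.81% of all. GGAATG was found in 6 of the same 13, so it was not confined to the YAP-TEAD list. TGANTCA, the AP-1 element, was found in 4 of 9 matrix protease promoters and in 8.97% of all. Neither the CArG box nor TGANTCA was found in the 7 immediate early promoters with a sequence.

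**Figure D2:**
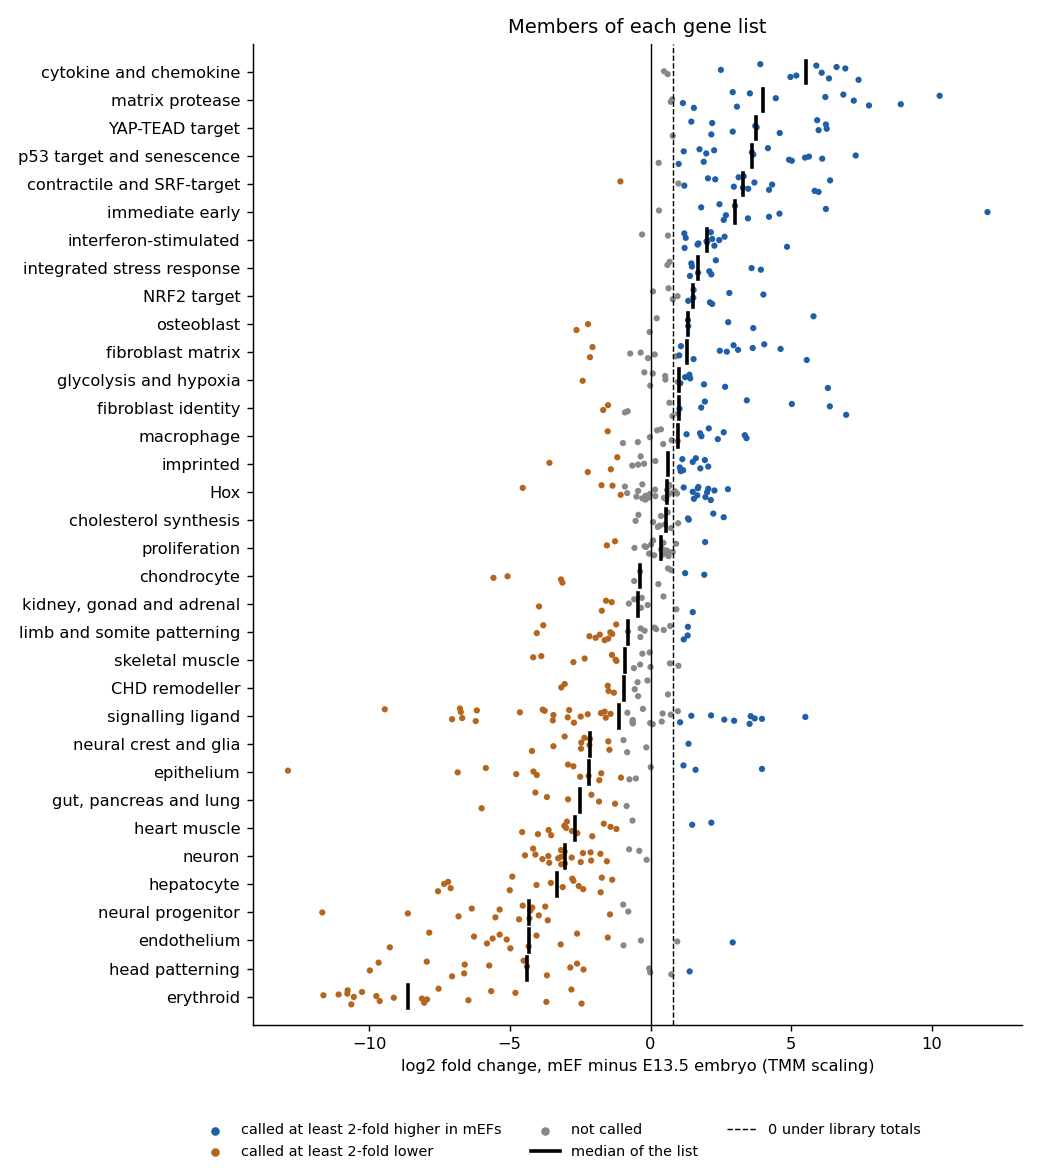
Log2 fold change (mEF minus E13.5 embryo, TMM scaling) of each tested member of 34 gene lists, colored by its call, with the list median as a black bar and a dashed line where 0 lies under library totals. Nearly all cytokine, protease, YAP-TEAD, p53 and contractile genes lay to the right of both lines, and all erythroid genes to the left.

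Fibroblast matrix genes did not move as one. Of 18, 11 were called higher and 2 lower, and the sum rose from 4327 to 4797 TPM in embryos to 8610 to 9709 TPM in mEFs. Bgn, a small proteoglycan that binds collagen, accounted for much of it with 120 to 139 TPM in embryos and 2576 to 3033 TPM in mEFs (log2 fold change 5.55 ± 0.09). Lox, which crosslinks collagen, went from 56.5 to 59.9 TPM to 650 to 743 TPM. Fn1, the fibronectin gene, went from 182 to 208 TPM to 787 to 829 TPM, and Sparc, a collagen-binding protein, from 612 to 681 TPM to 2250 to 2403 TPM. Col3a1 was at 937, 904 and 891 TPM in the embryos and at 95.8, 87.3 and 110 TPM in the mEFs, a log2 fold change of -2.15 ± 0.07 (edgeR adjusted p = 5.23e-10). Lum, a proteoglycan that spaces collagen fibrils, was at 200 to 213 TPM and 19.6 to 28.7 TPM, but it was not lower in each culture, since the other WT mEFs ran from 24.2 to 269 TPM. Col1a1 was called higher with a log2 fold change of 1.53 on 372 to 462 TPM in embryos and 520 to 580 TPM in mEFs. Its partner chain Col1a2 was not called at -0.09 ± 0.07 with TMM, yet its TPM was lower in each mEF library (261 to 315 TPM) than in each embryo (625 to 693 TPM), and its log2 fold change was -0.90 with library totals. The 9 other WT mEF libraries held 11300 to 22000 TPM of the matrix list, more than any of the 3 mEFs here. In brain, both Col3a1 and Col1a2 were lower with SENSE than with TruSeq, by log2 values of -1.81 and -1.26, and with that difference subtracted Col3a1 was no longer called (log2 fold change -0.47, edgeR adjusted p = 0.177).

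Markers used to recognize fibroblasts were higher as a sum, at 5885 to 6416 TPM in mEFs and 1423 to 1505 TPM in embryos, with 7 of 14 called higher and 2 lower (5 and 4 with library totals). Vim, the mesenchymal intermediate filament protein, made up most of the sum and went from 845 to 990 TPM to 4496 to 4773 TPM. Cd44, the hyaluronan receptor, rose from 8.80 to 9.91 TPM to 554 to 570 TPM, a log2 fold change of 6.95 ± 0.08 and the largest of the list. S100a4 was at 7.11 to 11.1 TPM in embryos and 274 to 403 TPM in mEFs. Prrx1, a transcription factor of limb and body wall mesenchyme, was at 73.4 to 95.9 TPM and 129 to 156 TPM. Pdgfra, the receptor by which embryonic mesenchyme is often sorted, went the other way, from 92.5, 96.9 and 93.6 TPM to 17.4, 11.6 and 13.3 TPM (log2 fold change -1.68 ± 0.10). The other WT mEFs held more of it, 25.3 to 75 TPM, and Pdgfra was not lower in WT mEFs from the Chaserr-/- pregnancy (0.18). Of the fibroblast genes named, Vim, Cd44, Col1a1 and Prrx1 were thus abundant in these cells, whereas Pdgfra and Lum were low in this set. These are single members, and only 7 of the 14 listed markers were called higher.

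Proteases that cut the matrix, with their inhibitors, were called higher for 12 of 14 members and lower for none. Timp1, an inhibitor of matrix metalloproteinases, was at 19.2, 19.9 and 19.3 TPM in embryos and at 991, 1074 and 1042 TPM in mEFs. The groups were far apart, with a log2 fold change of 6.85 ± 0.09 (edgeR adjusted p = 1.73e-12). Plaur, the urokinase receptor, rose from 2.75 to 3.31 TPM to 101 to 104 TPM. The collagenase gene Mmp13 held 4 counts in all embryos together and lay between 5.56 and 13.1 TPM in mEFs, with 17.3 to 94.9 TPM in the other cultures.

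Immediate early genes, which serum induces within minutes, were called higher for 10 of 11 members and lower for none. Fosl1, a Fos family subunit of AP-1, had the largest rise of all genes with at least 20 TPM: it held 2 counts in the 3 embryos and 72.2 to 74.2 TPM in the mEFs. Egr1 went from 8.76 to 11.0 TPM to 82.0 to 86.2 TPM, and Ier3, a response gene of NF-kappaB and serum, from 4.39 to 6.12 TPM to 171 to 187 TPM. Myc was the smallest of these rises, from 29.9 to 34.1 TPM to 79.5 to 84.0 TPM.

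Targets of p53 and inhibitors of the cell cycle were called higher for 15 of 16 members and lower for none, with a median log2 fold change of 3.62. Cdkn1a, which encodes the p21 inhibitor, was at 51.7, 38.9 and 38.4 TPM in embryos and at 561, 632 and 637 TPM in mEFs (log2 fold change 4.92 ± 0.13). Ccng1 and Mdm2, both direct p53 targets, rose to 499 to 541 TPM and 172 to 184 TPM from about the level of Cdkn1a in embryos (33.8 to 34.3 TPM and 29.3 to 30.4 TPM). Gdf15, a stress-induced secreted factor, rose most, by 7.29 ± 0.22 on the log2 scale, from at most 0.38 TPM to 20.5 to 22.1 TPM. At the locus of the p16 and p19Arf inhibitors, Cdkn2a went from at most 0.19 TPM to 3.60 to 6.63 TPM, and its neighbor Cdkn2b from 0.61 to 1.43 TPM to 17.9 to 25.9 TPM. The sum of the list was 1885 to 2050 TPM here and 759 to 1660 TPM in the other WT mEFs, so the 3 libraries of this set stood above each of the other 9, although all 12 were above the embryos.

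Of 12 cytokines and chemokines, 10 were called higher and none lower. Ccl2, which attracts monocytes, rose from 2.98 to 5.39 TPM to 248.87 to 339.31 TPM, a log2 fold change of 7.39 ± 0.16. Il1rl1, the receptor for interleukin-33 that fibroblasts secrete in soluble form after serum, rose from 1.26 to 1.62 TPM to 106 to 158 TPM, and Il6 from 0.07 to 0.08 TPM to 3.21 to 4.65 TPM. Cxcl12, the chemokine that guides progenitors in the embryo, was the most abundant member in embryos and turned with the scaling: 190 to 201 TPM in embryos, 150 to 159 TPM in mEFs, a log2 fold change of 0.61 with TMM and -0.21 with library totals. Ptgs2, the inducible cyclooxygenase, had one of the 10 largest rises, from 0.20 to 0.22 TPM to 176 to 195 TPM.

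Stress and metabolic genes changed less. Of 11 NRF2 targets, 7 were called higher and none lower. Hmox1, which breaks down heme, rose from 38.14 to 40.05 TPM to 270 to 330 TPM, and the ferritin light chain Ftl1 from 3080 to 3233 TPM to 6001 to 6400 TPM. The integrated stress response had 9 of 11 higher, 5 with library totals. Its factor Atf4 went from 273 to 320 TPM to 416 to 480 TPM and its target Chac1 from 1.12 to 1.54 TPM to 8.12 to 10.4 TPM. Glycolysis and hypoxia genes were higher for 7 of 14 and lower for 1, and with library totals for 3 and 2. Their sum was close in the groups by TPM, at 3501 to 3647 and 3769 to 3983, and 2.14-fold higher in mEFs by CPM after TMM. Adm, the hypoxia-induced adrenomedullin, rose from 1.09 to 2.14 TPM to 55.0 to 67.8 TPM, and the glycolytic enzyme Aldoa from 365 to 419 TPM to 1123 to 1158 TPM. Pdk1, which keeps pyruvate out of mitochondria, fell from 23.7 to 24.4 TPM to 1.97 to 2.37 TPM. Of 14 cholesterol synthesis genes, 4 were higher and none lower. Their sum turned with the unit, being 1.20-fold lower in mEFs by TPM and 1.70-fold higher by CPM after TMM, and their median log2 fold change was 0.56 with TMM and -0.26 with library totals. Cultures differed in these genes. Against the same embryos, 12 were higher in WT mEFs from the Chaserr+/- pregnancy and 9 in those of the Chaserr+/- Chd2+/m cross. Their sums were 1750 to 2010 and 1500 to 1880 TPM there, beside 767 to 1070 TPM in WT mEFs from the Chaserr-/- pregnancy.

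Interferon-stimulated genes were called higher for 13 of 15 members (8 with library totals), at low levels. Cxcl10 went from 0.60 to 1.75 TPM to 10.6 to 16.7 TPM. Isg15, a ubiquitin-like protein, was at 11.8 TPM in mEF replicate 1 but 4.28 and 5.99 TPM in the others, beside 2.92 to 3.92 TPM in embryos. Cultures differed widely here, since the sum of the list was 89.4 to 126 TPM in these mEFs and 81.3 to 859 TPM in the other 9, a 10.6-fold range.

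**Figure D3:**
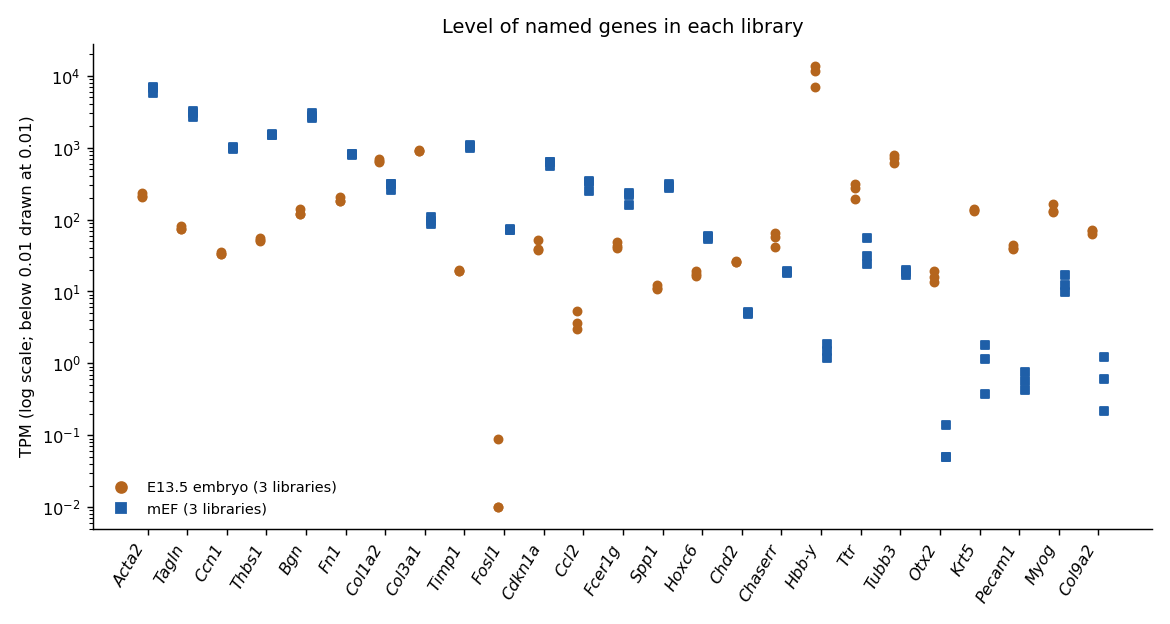
TPM (vertical, log scale, values under 0.01 drawn at 0.01) of 25 named genes in the 3 E13.5 embryo libraries (circles) and the 3 mEF libraries (squares). Fosl1 was near the floor in embryos and above 70 TPM in mEFs, and Hbb-y, Tubb3 and Pecam1 showed the opposite order.

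Blood was the largest loss. All 20 erythroid rows tested were called lower, against 30.0% of all genes, and the sum fell from 33900, 53650 and 36550 TPM in embryo replicates 1 to 3 to 52.96, 18.2 and 49.88 TPM in the mEFs, a 1030-fold difference (323-fold by CPM after TMM). These genes made up 4.14% of embryonic TPM. Globin rows share reads between near-identical copies and are less certain one by one. Hbb-y, an embryonic beta globin, went from 7084 to 13682 TPM to 1.18 to 1.89 TPM, and the adult-type rows Hba-a1/Hba-a2, Hbb-b1/Hbb-bs and Hbb-b2/Hbb-bt had log2 fold changes of -7.94, -9.12 and -10.54. Alas2, the enzyme that starts heme synthesis in red cells, was at 59.5, 106 and 46.2 TPM in embryos and held 1 count in all mEFs. Slc4a1, the band 3 anion exchanger, was at 29.0 to 107 TPM in embryos and held 2 counts in mEFs, and the transcription factor gene Gata1 was at 2.74 to 10.2 TPM and at 0 in all mEFs, at least 51.3-fold lower (against a limit of 3 counts over the group). Embryo replicate 2 was the highest of the embryos for Alas2, Slc4a1 and Gata1. Some of the other mEF cultures held more blood RNA, up to 954 TPM in all.

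The promoter of Alas2 is shown for the element AGATAA, which GATA factors bind and which is written here with its reverse complement TTATCT in capitals, 86 bases upstream of the start. The stretch is 160 bases at chrX:150547257-150547416 on the plus strand of GRCm38.p6, from RefSeq.
Alas2: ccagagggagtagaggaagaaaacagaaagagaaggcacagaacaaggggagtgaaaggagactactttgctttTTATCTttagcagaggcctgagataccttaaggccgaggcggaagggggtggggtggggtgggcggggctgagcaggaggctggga
AGATAA was found on either strand in 8 of 16 erythroid promoters with a sequence and in 12.7% of all promoters. The YAP-TEAD element GGAATG was found in 1 of these 16.

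All 16 hepatocyte genes tested were lower, and the organ had been cut away before culture. Their sum was 871, 1777 and 448 TPM in the embryos and 105, 45.7 and 122 TPM in the mEFs. Alb, the albumin gene, went from 54.6 to 437 TPM to 0.62 to 5.19 TPM, and Ahsg, which encodes fetuin, from 4.84 to 40.6 TPM to at most 0.08 TPM. Afp, the fetal alpha-fetoprotein, spread more, at 194, 550 and 86.6 TPM in embryos and 54.4, 11.1 and 51.1 TPM in mEFs, and its log2 fold change of -1.77 ± 0.63 lost its call without embryo replicate 2 (-0.79, edgeR adjusted p = 0.127) or without mEF replicate 2 (-1.31, 0.0925). Ttr, which carries thyroid hormone and is also made in the choroid plexus and yolk sac, kept 24.2 to 55.3 TPM in these mEFs from 191 to 312 TPM, while the other WT mEFs held at most 4.92 TPM.

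By fold of the TPM sum, neural progenitor and neuronal genes were the next largest losses, and the head had been removed before culture. The order was not the same by CPM after TMM, at 6.71-fold for neuronal, 5.33-fold for hepatocyte and 4.46-fold for progenitor genes. Of 17 neural progenitor genes, 15 were lower and none higher, and the sum was 21.6-fold lower by TPM, from 832 to 1048 TPM to 42.9 to 44.3 TPM, but 4.46-fold lower by CPM after TMM. Fabp7, a fatty acid binding protein of radial glia, was a large part of the TPM sum in embryos and went from 477 to 627 TPM to 5.17 to 5.85 TPM. Its log2 fold change of -5.51 shrank to -1.40 once the brain kit difference was subtracted, since Fabp7 was lower with SENSE in brain by -4.27. Nes, the intermediate filament gene of dividing progenitors, fell by 1.44 ± 0.06 on the log2 scale, from 109 to 118 TPM to 19.6 to 20.5 TPM, and with the kit difference subtracted it was not called (-0.28, edgeR adjusted p = 0.213). Neurog2, which commits progenitors to the neuronal fate, was at 22.4, 18.6 and 20.7 TPM in embryos and at 0 in all mEFs, at least 209-fold lower. Zic1, which dorsal neural tube and somites share, kept 12.5 to 14.2 TPM of 47.4 to 60.5 TPM.

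Of 22 neuronal genes, 19 were lower and none higher. Tubb3, the neuronal tubulin, went from 799, 618 and 720 TPM to 18.8, 16.8 and 20.2 TPM (log2 fold change -4.17 ± 0.10, edgeR adjusted p = 4.62e-11), Stmn2, a regulator of axonal microtubules, from 280 to 329 TPM to 13.8 to 18.1 TPM, and Nefl, the neurofilament light chain, from 151 to 157 TPM to 2.23 to 4.04 TPM. Gap43, the growth cone protein, was kept, with 101 to 110 TPM in mEFs beside 235 to 275 TPM in embryos and a log2 fold change of -0.14 ± 0.08 that was not called with TMM (-0.95 with library totals).

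Genes that pattern the brain and face were lower for 13 of 17 and higher for 1, and the head had been removed. Otx2, of forebrain and midbrain, went from 13.4 to 19.4 TPM to 0.05 to 0.14 TPM. Six3, of the eye field, and En2, of the midbrain-hindbrain boundary, were at 2.69 to 3.55 TPM and 3.31 to 4.32 TPM in embryos and at 0 in all mEFs, at least 52.1-fold and 64.6-fold lower. Lhx2 was at 40.5 to 52.6 TPM and 2.31 to 3.78 TPM. Emx2, which also patterns the urogenital system and the shoulder blade, was at 18.6 to 19.7 TPM in embryos and 8.57 to 9.49 TPM in mEFs and was not called (log2 fold change -0.01). En1, which also marks limb ectoderm and dermis, was called higher (1.39 ± 0.12, 5.58 to 5.67 TPM and 6.01 to 7.93 TPM), but it was higher with SENSE in brain by 2.54, and the direction turned to -2.46 with that difference subtracted.

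Neural crest and glial genes were lower for 10 of 14 and higher for 1. Ednrb, the endothelin receptor of migrating crest, went from 43.8 to 48.5 TPM to 6.51 to 9.66 TPM. Pax3, listed with the limb and somite genes and also used by the crest, went from 6.85 to 8.79 TPM to 0.15 to 0.31 TPM. Sox10, the factor that keeps crest cells and glia, was at 17.0 to 19.3 TPM and 3.39 to 5.96 TPM with a log2 fold change of -0.96, just inside 2-fold and so not called, and it was higher than in embryos in WT mEFs from the Chaserr-/- pregnancy (0.44).

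Epithelial genes were lower for 13 of 19 and higher for 3. Krt5 and Krt14, the paired keratins of basal skin cells, went from 131 to 140 TPM and 106 to 115 TPM to 0.37 to 1.80 TPM and 1.83 to 4.76 TPM. Krt15, another basal keratin, was at 61.5, 62.9 and 64.8 TPM in embryos and at 0 in all mEFs, at least 486-fold lower. Epcam, the adhesion protein of most epithelia, went from 26.3 to 37.0 TPM to 0.74 to 1.06 TPM. Krt19, a keratin of simple epithelia and of mesothelium, moved the other way, from 15.3 to 16.4 TPM to 113 to 130 TPM (log2 fold change 3.96 ± 0.09). The sum of the list was 211 to 248 TPM here and 117 to 520 TPM in the other WT mEFs.

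Endothelial genes were lower for 13 of 17 and higher for 1, and the sum was 7.76-fold lower by TPM and 2.20-fold lower by CPM after TMM. Pecam1, the adhesion molecule of vessels, went from 43.7, 39.6 and 40.1 TPM to 0.43, 0.56 and 0.76 TPM (log2 fold change -5.11 ± 0.13). Cldn5, of endothelial tight junctions, was at 36.9 to 40.8 TPM and held 1 count in mEFs, and Egfl7 was at 60.1 to 62.6 TPM and 1.51 to 1.76 TPM. Aplnr, the apelin receptor of growing vessels, was at 31.9 to 34.6 TPM and held 1 count in mEFs. Flt1, a VEGF receptor, was the member called higher, at 5.15 to 5.92 TPM in embryos and 18.3 to 22.3 TPM in mEFs, with the defining genes Pecam1 and Cldn5 near 0.

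Muscle was reduced but not lost in this set. Of 14 skeletal muscle genes, 7 were lower and none higher, and the sum was 2149 to 3063 TPM in embryos and 543, 880 and 690 TPM in mEFs. Myog, which drives the fusion of myoblasts, went from 129 to 164 TPM to 9.86 to 16.9 TPM, and Mylpf, the fast myosin light chain, from 587 to 873 TPM to 102 to 174 TPM. Ryr1, the calcium release channel, was the largest fall, from 5.42 to 7.16 TPM to 0.11 to 0.21 TPM. Actc1, the alpha-cardiac actin of embryonic muscle, was at 643 to 898 TPM and 271 to 444 TPM, and it was not called with TMM (edgeR adjusted p = 0.991), while its log2 fold change was -0.82 with library totals. In mEF replicate 2, Myog, Mylpf and Actc1 were each the highest of the mEFs. Other cultures differed: against the same embryos, 11 skeletal muscle genes were lower in WT mEFs from the Chaserr+/- pregnancy. In those from the Chaserr-/- pregnancy, 3 were lower and 2 higher. The sum ran from 377 to 2000 TPM over the other WT mEFs. Of 16 heart muscle genes, 13 were lower and 2 higher. Myh7, the slow and embryonic cardiac myosin, went from 22.2 to 46.0 TPM to 0.39 to 1.01 TPM, and Myl2, of the ventricle, from 106 to 253 TPM to 4.09 to 21.5 TPM. Myl4, an atrial and embryonic light chain, went from 301 to 366 TPM to 49.2 to 83.6 TPM. Tbx20, of the heart tube, was called higher at 2.16 ± 0.20 on 1.23 to 1.83 TPM and 2.45 to 4.21 TPM, and in WT mEFs from the Chaserr-/- pregnancy this was -0.05.

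Of 11 chondrocyte genes, 4 were lower and 2 higher, beside 30.0% and 21.8% of all genes tested, and with library totals 5 were lower and none higher. Col2a1, the cartilage collagen, was at 117, 106 and 118 TPM in embryos and 46.5, 36.9 and 26.4 TPM in mEFs, a log2 fold change of -0.58 that stayed inside 2-fold, and it was higher than in embryos in WT mEFs from the Chaserr+/- pregnancy (1.25). Col9a2, a collagen on the surface of those fibrils, fell more, from 62.5 to 71.9 TPM to 0.22 to 1.21 TPM. Osteoblast genes went the other way with 5 of 9 higher and 2 lower, and the sum rose 7.53-fold. Most of that was Spp1, the osteopontin gene, which was at 12.1, 10.7 and 11.1 TPM in embryos and 314, 291 and 271 TPM in mEFs (log2 fold change 5.79 ± 0.08). Runx2, which commits mesenchyme to bone, went from 5.23 to 5.95 TPM to 16.3 to 20.6 TPM.

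Organ genes of the trunk were low in both groups. Of 8 tested gut, pancreas and lung genes, 7 were lower and none higher. Prox1, which is also a liver and lymphatic factor, went from 6.50 to 8.02 TPM to 0.63 to 1.03 TPM, and Cpa1, of pancreatic acini, from 2.99 to 4.19 TPM to 1 count in mEFs. Of 12 kidney, gonad and adrenal genes, 4 were lower and 1 higher, beside 30.0% and 21.8% of all genes. With library totals 8 were lower, and with the kit difference of the brain subtracted 10 of the 14 tested in that fit. Lhx1, of the nephric duct, went from 9.98 to 12.4 TPM to 0.28 to 0.40 TPM, and Six2, which keeps nephron progenitors, was at 21.1 to 22.3 TPM and 6.20 to 7.23 TPM, a log2 fold change of -0.58.

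Macrophage genes differed between cultures. Of 17, 8 were called higher and 1 lower, and with library totals 5 and 3. Against the same embryos, 4 were higher and 2 lower in WT mEFs from the Chaserr+/- pregnancy, and 14 were higher and none lower in those from the Chaserr-/- pregnancy. In the libraries compared here the sum was 379 to 416 TPM in embryos and 808, 545 and 701 TPM in mEFs. Fcer1g, a signalling adaptor, went from 40.4 to 48.5 TPM to 161 to 236 TPM, Cd68, a lysosomal protein, from 11.4 to 12.6 TPM to 48.5 to 74.5 TPM, and Lyz2, the lysozyme gene, from 37.2 to 48.1 TPM to 97.0 to 152 TPM. Csf1r, the receptor that the lineage needs, was not called (log2 fold change -0.02, 19.7 to 25.6 TPM and 7.29 to 12.8 TPM), and Mrc1, the mannose receptor of tissue macrophages, was lower (-1.52, 16.4 to 18.2 TPM and 2.40 to 3.94 TPM). The mEF with the most Fcer1g, Cd68, Lyz2, Mrc1 and Csf1r was replicate 1 in each case. The sum ran from 320 to 1610 TPM over the other WT mEFs, a 5.03-fold range, so cultures differed in it more than the groups did here.

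The Hox genes, which set position along the body, were the one list whose sums overlapped, at 427 to 481 TPM in embryos and 426 to 442 TPM in mEFs. Of 37 tested, 12 were higher and 4 lower with TMM, and 6 higher and 10 lower with library totals, with a median log2 fold change of 0.59 and -0.22. With TMM, of the 11 genes of the anterior paralogue groups 1 to 4, 2 were higher and 4 lower, whereas of the 15 of groups 5 to 9 and the 11 of groups 10 to 13, 5 each were higher and none lower. With library totals, 1 was higher and 5 lower in groups 1 to 4, 4 higher and 3 lower in groups 5 to 9, and 1 higher and 2 lower in groups 10 to 13. By cluster, Hoxc genes had the highest median log2 fold change, 1.5 with TMM and 0.69 with library totals. Hoxc6 was at 17.8, 16.3 and 19.5 TPM in embryos and 57.2, 53 and 59.2 TPM in mEFs (log2 fold change 2.75 ± 0.08). Hoxb9 went from 23.8 to 47.9 TPM to 62.1 to 64.4 TPM, and Hoxa5 from 25.4 to 28.3 TPM to 46.0 to 53.8 TPM, although Hoxa5 was higher with SENSE in brain and its direction turned with that difference subtracted (-2.18). Hoxd1 held 3 counts in mEFs beside 2.46 to 3.50 TPM in embryos, and Hoxd4 went from 9.54 to 10.5 TPM to 1.26 to 1.5 TPM. Anterior Hox genes act in the hindbrain and neck, next to the part that was cut away. Whether the cut bears on their levels here was not tested. Only 8 Hox genes could be tested in brain, and their median kit difference was 4.25.

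Limb and somite patterning genes were lower for 10 of 21 and higher for 3, none with library totals. Tbx15, of limb and trunk mesenchyme, was kept at 21.9 to 25.4 TPM beside 35.8 to 38.0 TPM, with a log2 fold change of 0.47 that was -0.34 with library totals. Secreted signals split: of 42 ligands tested, 10 were higher and 21 lower. Inhba, the activin A subunit, rose from 4.93 to 6.84 TPM to 113 to 131 TPM, Bmp4 from 19.7 to 24.5 TPM to 108 to 125 TPM, and Fgf7, which fibroblasts send to epithelium, from 3.60 to 4.68 TPM to 23.96 to 27.97 TPM. Among those lower, Wnt6, of the ectoderm, went from 15.2 to 16.3 TPM to 0.10 to 0.11 TPM, Shh, of the floor plate, limb margin and endoderm, from 3.45 to 4.62 TPM to 0.19 to 0.52 TPM, and Wnt8b, of the forebrain, from 2.64 to 3.06 TPM to 0 in all mEFs, at least 44.8-fold lower.

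Imprinted genes, many of which set fetal growth, were higher for 9 of 18 and lower for 4 with TMM, and higher for 2 and lower for 8 with library totals. H19, the noncoding RNA that shares its control region with Igf2, was at 5581, 5478 and 5544 TPM in embryos and 1059, 901 and 987 TPM in mEFs, a log2 fold change of -1.41 ± 0.05. This turned to 1.29 with the kit difference of the brain subtracted, where H19 was lower with SENSE by -2.79. Igf2 itself was called higher at 1.77 ± 0.05 on 1585 to 1674 TPM and 2040 to 2346 TPM. Nnat, a gene of the developing brain, went from 1296 to 1615 TPM to 52.1 to 68.6 TPM, and Cdkn1c, the p57 inhibitor, from 744 to 784 TPM to 70.6 to 82.1 TPM. The sum of the list was 2.37-fold lower in mEFs by TPM and 1.27-fold higher by CPM after TMM.

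Of the genes at the center of the study, Chd2 was called lower and Chaserr was not called. Chd2, a chromatin remodeller of the CHD family, was at 26.5, 25.9 and 25.6 TPM in embryos and 4.82, 5.24 and 5.04 TPM in mEFs, a log2 fold change of -1.30 ± 0.07 (edgeR adjusted p = 9.18e-09) and of -0.82 with the kit difference subtracted. Chaserr was at 42.1, 64.6 and 57.1 TPM and at 17.82, 19.04 and 18.61 TPM. All mEFs were below all embryos in TPM, but the log2 fold change of -0.44 ± 0.15 (edgeR adjusted p = 0.0208) was under 2-fold, and it lost its significance without embryo replicate 2 or 3 or without mEF replicate 1 or 3 (-0.30 to -0.41, adjusted p = 0.0584 to 0.114 by edgeR). In the other WT mEFs Chaserr ran from 8.63 to 93.7 TPM, and in those of the Chaserr+/- Chd2+/m cross it was higher than in the embryos (log2 fold change 1.38). Of 10 listed genes, the 9 CHD remodellers and Chaserr, 5 were lower and none higher (8 lower with library totals, 3 with the kit difference subtracted). Chd7, mutated in CHARGE syndrome and used by neural crest, had the largest fall, -3.05 ± 0.08, from 14.9 to 16.6 TPM to 0.85 to 0.94 TPM. Chd3 and Chd4, the helicases of the NuRD complex, had log2 fold changes of -1.49 and -0.56, and their TPM went from 166 to 176 and 151 to 154 in embryos to 27.9 to 30.2 and 45.2 to 53.8 in mEFs.

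Genes of the dividing cell changed little with TMM, with 1 of 20 higher and 2 lower and a median log2 fold change of 0.39 (-0.42 with library totals). Pcna, the polymerase clamp, was at 399 to 436 TPM and 348 to 393 TPM, and Rrm2, which makes deoxynucleotides, was the member called higher, from 118 to 134 TPM to 203 to 253 TPM. Mcm5, of the replicative helicase, and Top2a, which untangles chromosomes, were lower (-1.55 and -1.26), but Top2a was not called and turned to 0.34 with the kit difference subtracted. The sum of the list was 1.49-fold lower in mEFs by TPM and 1.18-fold higher by CPM after TMM.

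Other genes had larger changes than most listed ones. Sprr2k, a cornified envelope protein gene, was at 0 in all embryos and at 20.0 to 37.1 TPM in mEFs, at least 441-fold higher. Ly6a, which encodes Sca-1, a surface marker of mesenchymal progenitors, rose from 1.00 to 1.31 TPM to 241 to 345 TPM. Gpnmb, a lysosomal membrane glycoprotein, rose from 0.62 to 1.10 TPM to 166 to 219 TPM, and Serpinb9b, a granzyme inhibitor, from at most 0.16 TPM to 46.5 to 49.7 TPM. The uncharacterized transcripts U90926 and 3300005D01Rik held 1 and 5 counts in all embryos and reached 44.8 to 56.1 TPM and 22.9 to 25.8 TPM. Each of these 6 genes was above 4 TPM in every one of the 9 other WT mEF libraries. Among the falls, the transcript D930028M14Rik went from 17.9 to 22.8 TPM to 0 in all mEFs, at least 84.7-fold lower.

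In absence, the comparison was lopsided. Of 19796 rows with a count in any of the 6 libraries, 870 (4.39%) were at 0 in all mEFs and above 0 in all embryos, 187 of them with at least 1 TPM in embryos. The converse held for 59 rows (0.298%), 17 of them with at least 1 TPM in mEFs. The embryos were also sequenced more deeply. Of the 870 rows, 198 were at 0 in the 9 other WT mEF libraries too. A row for an Hba-a2 transcript followed the kit. It was at 951 to 1439 TPM in embryos and 0 in all mEFs, and also at 0 in the 4 SENSE brains and at 79.0 and 124 TPM in the 2 TruSeq brains. The Ndufs5-ps pseudogene row did so in the brains but not in every mEF culture. It was at 99.9 to 196 TPM in embryos, at 0 in these mEFs and the SENSE brains, and at 337 and 407 TPM in the TruSeq brains, but at 187 to 388 TPM in the WT mEFs of the Chaserr+/- Chd2+/m cross, which were SENSE libraries.

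The kit difference could be gauged only in adult brain, where 4 libraries were made with SENSE and 2 with TruSeq. Both kits held brains of WT and of Chaserr+/- mice, so the values with the kit difference subtracted rest partly on mutant brains. In brain, 2404 of 15304 genes differed between the kits by at least 2-fold (15.7%, edgeR with genotype as a covariate). Whether anything besides the kit separated the SENSE brains from the TruSeq brains was not tested. Over 14445 genes tested in both, the mEF-embryo and the kit difference had a Spearman correlation of 0.325 and a Pearson correlation of 0.278, given as a description, since genes are not independent. The median brain kit difference was 0.38 for genes higher in mEFs and -0.26 for those lower. Of the higher genes tested in brain, 494 of 3124 (15.8%) had a kit call in the same direction, and of the lower genes 596 of 4089 (14.6%). With the kit difference of the brain subtracted, 2041 of 3392 genes (60.2%) were still called higher and 3527 of 4669 (75.5%) still lower, although genes with few counts in brain lose precision in that fit. Gene length showed a smaller pattern, with a median log2 fold change of 0.09 in the shortest genes (117 to 2141 bases), -0.30 in the middle and -0.24 in the longest (from 3692 bases), and of -0.09, -0.08 and 0.11 between kits in brain.

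**Figure D4:**
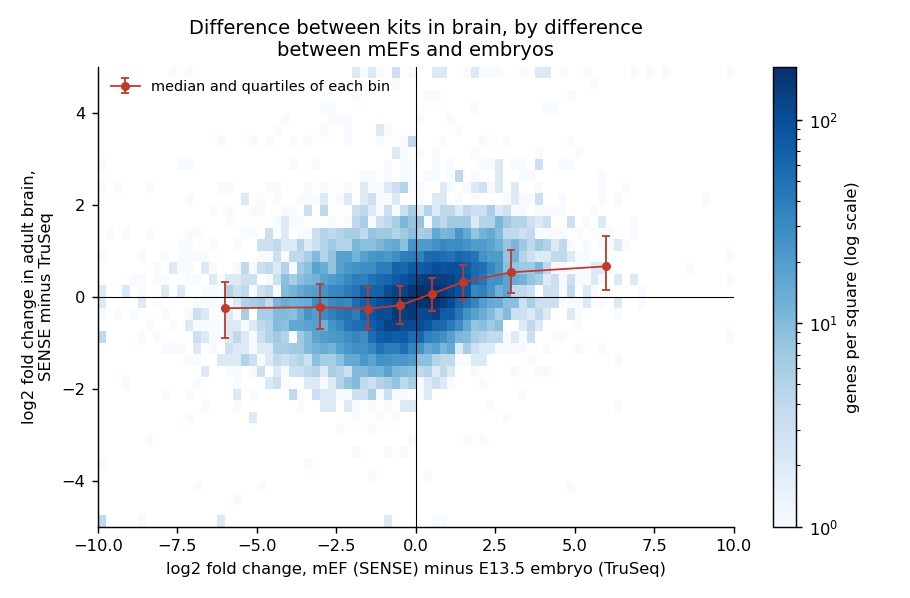
Log2 difference between SENSE and TruSeq in adult brain (vertical) against the log2 fold change of mEF over E13.5 embryo (horizontal) for 14445 genes, shaded by the number of genes per square (log scale), with the median and quartiles of bins in red and the outermost bins drawn at 6 on either side. The medians rose from below 0 on the left to above 0 on the right, and most genes lay within 2 log2 units of 0 between kits.

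In the fit with the kit difference subtracted, 2579 of all 16943 genes tested were called higher and 4728 lower. Of the lists, 11 of 12 YAP-TEAD, 14 of 16 p53, 11 of 14 protease and 11 of 11 immediate early genes were called higher in it, and 11 of 16 contractile genes. Among the lost tissues, 16 of 17 neural progenitor, 20 of 22 neuronal, 14 of 17 endothelial and 13 of 20 erythroid genes were called lower. The counts were 5 of 16 for hepatocyte, 8 of 16 for heart muscle and 9 of 19 for epithelial genes, lists of which 7, 9 and 8 members could be tested in brain. The hepatocyte share was close to that of all genes called lower in the fit. Of the 37 Hox genes none was called higher in that fit and 7 lower. Of the genes named above, 31 were no longer past an adjusted p of 0.05 in it (edgeR), and 23 of these had not passed the count filter in brain. Those higher in mEFs were Actg2, Ankrd1, Cdkn2a, Ccl2, Il6, Hoxa5, Hoxb9, Hoxc6, Tbx20, Sprr2k, U90926 and 3300005D01Rik. Those lower were the blood and liver genes Gata1, Alb, Afp, Ahsg and the Hba-a2 transcript row, the keratins Krt5, Krt14 and Krt15, the muscle genes Myog, Mylpf and Myl2, and Nes, Top2a, Col2a1, Col3a1, Cpa1, Hoxd1, Hoxd4 and the Ndufs5-ps row. The log2 fold change with the kit difference subtracted stayed large for Sprr2k (11.04), 3300005D01Rik (6.41), Il6 (6.32), Cdkn2a (6.21), Ccl2 (4.93), Ankrd1 (4.87), Gata1 (-8.18) and Krt15 (-9.49). It shrank for Actg2 from 5.83 to 2.67, for Hoxc6 from 2.75 to 1.22, for Ahsg from -7.55 to -2.53, for Alb to -0.93 and for the Hba-a2 transcript row from -15.18 to -3.62. It turned for Hoxa5, Tbx20, Top2a and the Ndufs5-ps row.

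Open chromatin of WT mEFs was available from ATAC-seq of other pregnancies, a readout independent of the RNA libraries compared, with peaks called in each of 6 libraries. A promoter was taken as open when a peak lay within 300 bases of a start site (mm9, GENCODE vM1) in at least 1 library. One of the libraries, replicate 2 of the WT mEFs from the Chaserr+/- Chd2+/m cross, had 18661 peaks while the others had 58324 to 70516. It had a promoter peak at 50.3% of tested genes, and the others at 81.4 to 85.0%. Shares counted in all 6 libraries are therefore limited by this library. Of 14876 tested genes with a position, 88.4% had an open promoter. The share was 92.3% of genes higher in mEFs and 77.4% of those lower. Among the lower genes it was 65.6% where the mEF level was under 1 TPM and 91.5% where it was at least 1 TPM, and it was 24.5% of the rows at 0 in all mEFs and above 0 in all embryos. No test was made of these shares.

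In at least 1 library, all contractile, YAP-TEAD, cytokine and immediate early promoters were open, as were those of 6 other lists, beside 88.4% of all genes. In all 6 libraries the shares were 68.8% of contractile, 72.7% of immediate early, 41.7% of YAP-TEAD and 3 of 12 cytokine promoters, beside 50.1% of all genes. For erythroid and hepatocyte promoters, 23.5% and 12.5% were open in at least 1 library. Acta2 and Ankrd1 had a promoter peak in 6 of 6 libraries and Ccn1 in 5, while Alas2, Pecam1, Krt5 and Krt15 had none. The genes lie in mm9 at chr3:145309935-145312949 (Ccn1), chr19:36186455-36194334 (Ankrd1) and chrX:146981918-147005181 (Alas2). Neural promoters were more often open than those of blood, at 87.5% of progenitor and 77.3% of neuronal genes. In all 6 libraries, the one with few peaks included, the shares were 12.5% and 22.7%, beside 50.1% of all genes. Otx2 and Neurog2, nearly silent or silent in these mEFs, had a peak in 2 libraries each, and Tubb3 in 5. Emx2, a head gene that was not called, had a peak in 6 libraries. RNA and open promoters also parted the other way. Macrophage genes, of which 8 of 17 were higher in RNA, had an open promoter in 23.5% of cases, with Fcer1g at 0 libraries and Cd68 at 1. Ly6a, at 241 to 345 TPM, had no promoter peak, and Spp1 had one in 1 library.

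**Figure D5:**
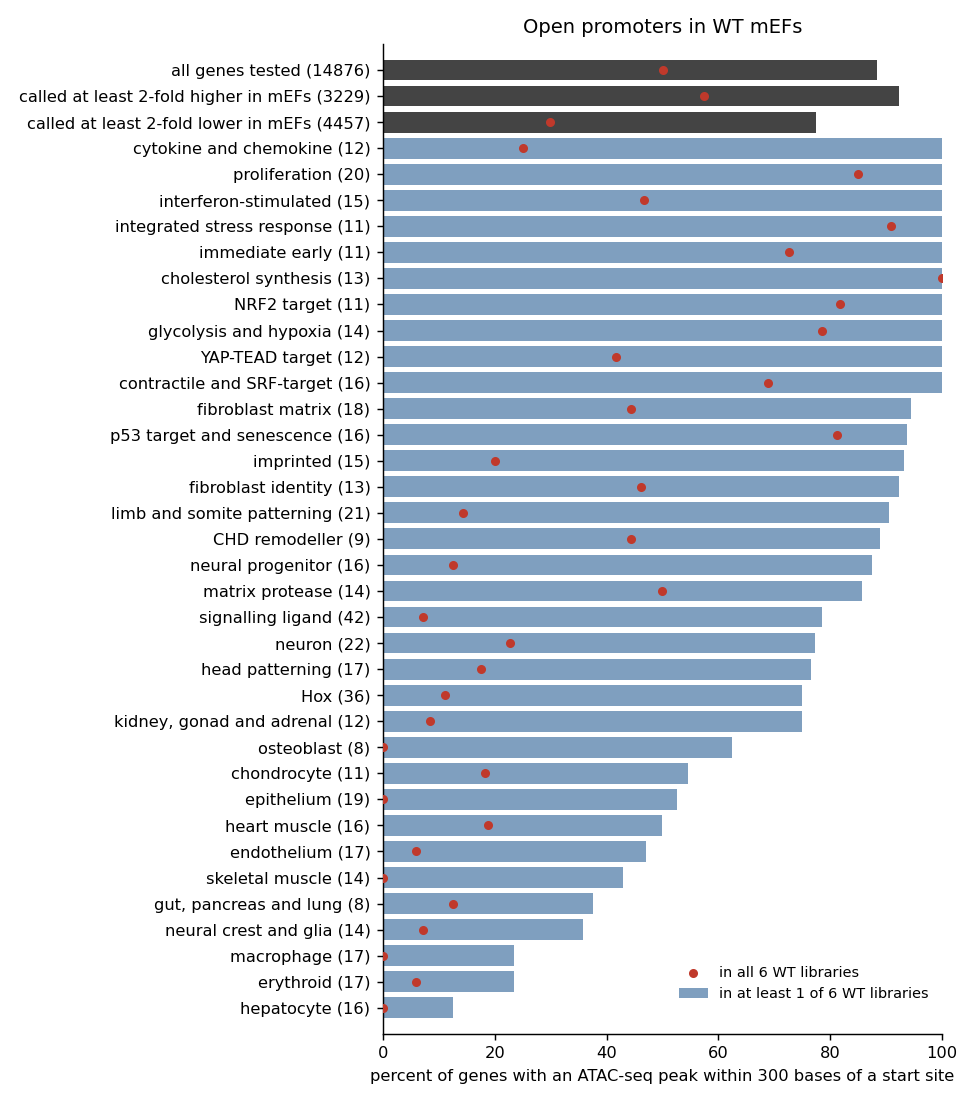
Percent of tested genes with an ATAC-seq peak within 300 bases of a start site in at least 1 of 6 WT mEF libraries (bars) and in all 6 (points), for all genes, for genes called higher or lower, and for each of 34 lists, with the number of genes in parentheses. Bars fell from 100% for contractile and YAP-TEAD genes to 23.5% for macrophage and erythroid genes and 12.5% for hepatocyte genes.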

How the data were processed

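Of RNA-seq libraries, 3 of WT mEFs and 3 of WT E13.5 embryos were compared. Per the study's methods, the authors sequenced poly(A) libraries as paired-end reads and quantified genes with RSEM on a RefSeq annotation edited at Chaserr, and deposited expected counts and TPM for each gene. For ATAC-seq the authors aligned reads to mm9 with Bowtie2 and called peaks in each library with MACS2, and the deposited peak tables hold a −log10 p beside each position; only positions were used here, with bedtools 2.31.1. RSEM settings were not given in the sources used here.

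Expected counts were rounded and fitted with edgeR 4.0.16 in R 4.3.3 (filterByExpr, TMM, quasi-likelihood test, Benjamini-Hochberg adjustment, no covariate). A call needed an adjusted p under 0.05 and a 2-fold change. DESeq2 1.42.0, the study's tool, other scalings, filters, a fold-based test, other WT mEFs, leaving out each library and the brain kit difference were alternatives. Positions came from GENCODE vM1 and promoters from RefSeq. Code was tested on simulated data.

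The groups, the gene lists and the tests were chosen with earlier results of these data known. Of the 142 genes named as results, 102 followed a rule (the 10 largest rises and falls with at least 20 TPM, the most abundant and most changed members of each list, Chd2 and Chaserr), and 40 were chosen after their values were seen. Xist and Ddx3y were chosen the same way. Some genes that the rule picks are not reported here. Depth limits low genes: 3 counts over a group was taken as the limit of a count of 0, which covers counting error only.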

Additional observations from a re-analysis of the deposited data

How the results depend on the processing

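Scaling was the choice that moved the counts of calls. With library totals in place of TMM, 1508 genes were called higher and 7640 lower, in place of 3394 and 4671. Under the 12 other settings that kept the 3 mEFs or replaced them, calls ranged from 2579 higher (brain kit difference subtracted) to 3732 (DESeq2) and from 3923 lower (WT mEFs from the Chaserr-/- pregnancy) to 5401 (no filter on low counts). Leaving out each library in turn gave 3382 to 3568 higher and 4596 to 4798 lower. The count between kits in brain was 2401 with DESeq2, 2625 with no filter and 2174 with WT brains only. Replicate numbers of mEFs and embryos did not pair (correlations of deviations -0.11, 0.0396 and 0.089), and with the replicate block 3392 genes were higher and 4669 lower. Among named genes the block took the call of Afp (adjusted p = 0.0708 by edgeR) and no other, and DESeq2 did not pass Afp either (0.0682).

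Some directions turned. By CPM after TMM, the sums of the proliferation (1.18), cholesterol synthesis (1.70) and imprinted (1.27) lists were higher in mEFs. With library totals, log2 fold changes were -0.21 for Cxcl12 and -0.34 for Tbx15. With the brain kit difference subtracted, they were -2.46 for En1, 1.29 for H19, -2.18 for Hoxa5, -0.52 for Cxcl12, 0.34 for Top2a, -0.68 for Tbx20 and 1.33 for the Ndufs5-ps row. Compared with embryos, WT mEFs from the Chaserr-/- pregnancy gave 0.18 for Pdgfra, 0.81 for Lum, 0.44 for Sox10 and -0.05 for Tbx20, those from the Chaserr+/- Chd2+/m cross 0.75 for Lum, 0.37 for Mrc1, 1.38 for Chaserr and 1.81 for the Ndufs5-ps row, and those from the Chaserr+/- pregnancy 1.25 for Col2a1. The cause of these turns was not tested. The kit-subtracted fit also took the significance of 31 named genes, these turns of Hoxa5, Tbx20, Top2a and the Ndufs5-ps row included, and 23 of the 31 had not passed the count filter in brain. A group of 3 libraries limits how small a change could be called, and genes with few counts in mEFs are the least precise.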
